A study of Mus musculus with 6 samples.

Results

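Interleukin-15 (IL-15), its receptor and the genes of the common gamma chain receptor family were described in RNA-seq of differentiating DM1 myoblasts. The group held 8 genes out of 55421 in the count table: the ligands Il15 and Il7, the receptor genes Il15ra, Il2rg, Il7r, Il4ra and Il13ra1, and the kinase gene Jak3. They were taken by gene name as relatives of one receptor system and were chosen partly on their log2 fold changes and CPM in this comparison, which were already known, so their differences between the groups are a description: whether a gene met a cut-off is stated as a property of its values, no p is given for it, and none of it is independent evidence. Of the 8 genes, 7 passed the expression filter that left 18140 genes for testing, and Il7r did not.

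DM1, myotonic dystrophy type 1, comes from an expanded CTG repeat. The study asked which pathways mediate the rescue of myogenesis by the microRNAs miR-322 and miR-503, overexpressed in a cell model of the disease. The control group was 3 libraries of DM1 myoblasts carrying the empty pLL4.0 vector, and the miR-322/-503 group was 3 libraries of DM1 myoblasts carrying the same vector with a miR-322/-503 fragment, all collected on day 4 of differentiation. Both groups descended from the mouse cell line C2C12, whose myoblasts fuse to myotubes in low serum, and both carried the pCDNA3-GFP-(CUG)200 plasmid with 200 repeats behind GFP. Each group was a drug-selected stable line under the conditions given, so a difference between the lines and an effect of the microRNAs cannot be told apart.

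Receptors of this family share the common gamma chain, encoded by Il2rg, which passes the signal of several interleukins to the Janus kinase JAK3. A ligand-specific chain pairs with it: the IL-7 receptor alpha chain (Il7r) for IL-7, the IL-4 receptor alpha chain (Il4ra) for IL-4, and for IL-15 a receptor alpha chain (Il15ra) that presents the cytokine to a complex of Il2rb and the gamma chain. The IL-4 receptor alpha chain can instead pair with Il13ra1, giving a receptor for IL-4 and IL-13 that needs no gamma chain. In muscle, IL-15 and IL-7 are known as cytokines that myogenic cells make themselves, and IL-4 is known for recruiting myoblasts to growing myotubes.

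The microRNAs are shown first because they are the treatment, with their seed (bases 2 to 8, from the 5′ end) in capitals. Mature sequences and positions are from RefSeq on GRCm38.p6, where mmu-miR-322-5p lies at chrX:53054306-53054327 and mmu-miR-503-5p at chrX:53054027-53054049, both on the minus strand.
mmu-miR-322-5p: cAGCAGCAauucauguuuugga
mmu-miR-503-5p: uAGCAGCGggaacaguacugcag
The seeds share bases 2 to 7, AGCAGC, and differ at base 8. The genes of the microRNAs had few reads: Mir322 had 1, 7 and 2 estimated counts in the control libraries and 17, 0 and 3 in those with miR-322/-503, and Mir503 had 1, 1 and 2 against 6, 4 and 5. Mir503 was higher in every miR-322/-503 library and Mir322 was not, at counts of about 4 per read pair, and the mature microRNAs were not measured by this assay.

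The longest annotated 3′UTR of each of the 8 genes was searched on its sense strand for the complement of the seeds, which is TGCTGCT for miR-322-5p, CGCTGCT for miR-503-5p and the contained GCTGCT for the shared bases. A TGCTGCT was present in Il15, Il7, Il15ra and Il7r, a CGCTGCT in Jak3, and only the shorter GCTGCT in Il4ra, while Il2rg (474 bases) and Il13ra1 (2353 bases) held none of these. Among 13416 tested genes with a 3′UTR, 24.4% held TGCTGCT, 4.87% CGCTGCT and 45.2% GCTGCT, with a median length of 1174 bases. The sites of the genes with a seven-base match are shown in their surroundings, with the match in capitals.
Il15: acctccaccTGCTGCTcagaggcag
Il7: ctactgggaTGCTGCTtaaatttta
Il15ra: ttggcccttTGCTGCTttgcaccta
Il7r: tgattttccTGCTGCTattatccat
Jak3: gctgtgcacCGCTGCTgtcttactg
On GRCm38 these windows lie in the 3′UTR at chr8:82331851-82331875 (Il15, minus strand), chr3:7571595-7571619 (Il7, minus strand), chr2:11733699-11733723 (Il15ra, plus strand), chr15:9506925-9506949 (Il7r, minus strand) and chr8:71690300-71690324 (Jak3, plus strand). The Il15 site is carried by 3 of 3 annotated coding transcripts and that of Il15ra by 6 of 9. The Il7r site is in 2 of 2, and that of Il7 in 1 of 4, which has a 3′UTR of 3846 bases. For Jak3, 1 of 3 holds the GCTGCT that is part of its site. The Jak3 window also lies within Insl3, a coding gene annotated on the same strand (71689214 to 71690575). No library held more than 5 counts of Insl3. A match of letters is a description of the sequence and does not show that the site is used, and the gene-level counts do not tell which transcript was present.

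Total estimated counts ran from 73532084 to 92157388 per library, and about 4 of these counts came from each read pair, so 12 counts stand for 3 read pairs and correspond to 0.126 to 0.16 CPM (counts scaled to library size after TMM normalization). Of 12 skeletal muscle marker genes, 12 were measured, and their summed level was 3525 to 3809 CPM in the control and 4393 to 4608 CPM in the miR-322/-503 libraries, with 7 past the adjusted p upward and 1 downward. The downward gene was Myog, at 203 ± 15.8 against 122 ± 10.2 CPM (SD, n = 3). Des, an upward gene with a large share of the sum, was at 1150 ± 61.2 against 1800 ± 59.4 CPM. Acta1 and Myh3, also large in the sum, did not pass. Of 11 lymphoid markers, 9, the T cell genes Cd3e and Cd4 and the natural killer cell gene Ncr1 among them, were at 0 in every library, and the summed level did not exceed 0.157 CPM. Among the macrophage markers, Adgre1 and Tyrobp were also at 0, while Cd68 and Csf1r had reads in every library. Cd68 was at 2.47 ± 0.459 against 3.44 ± 0.368 CPM and Csf1r at 0.756 ± 0.255 against 0.643 ± 0.167 CPM (SD, n = 3). Neither passed the adjusted p. The 8 myeloid markers together gave 17.9 to 21.8 CPM in the control and 16.3 to 17.4 CPM with miR-322/-503. Of these, 2 were past the adjusted p downward: Cd14, and Lyz2, which had 141, 78 and 88 estimated counts against 0, 0 and 5. The 4 endothelial markers gave 1.03 to 1.3 against 3.75 to 5.07 CPM, nearly all from Tek, which was past the adjusted p upward. The 5 fibro-adipogenic markers gave 320 to 474 against 207 to 450 CPM, with 2 past the adjusted p downward: Cd34 at 247 ± 29.4 against 83 ± 13.1 CPM and Pdgfra at 36.4 ± 1.33 against 21.7 ± 1.8 CPM (SD, n = 3). Their sum also holds Ly6a, which varied from 53.9 to 334 CPM between libraries. The part of these marker levels in the values below was not tested. In a bulk library, fewer cells that express a gene and less RNA of it per cell cannot be told apart.

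In the miR-322/-503 libraries the ligands Il15 and Il7 and the receptor gene Il15ra were lower, the common gamma chain gene Il2rg was higher, and by smaller amounts Il4ra was lower and Il13ra1 higher. A gene was called at an adjusted p under 0.05 from edgeR and an absolute log2 fold change above 1; these are the cut-offs of the study, which applied them with DESeq2. By these cut-offs, as a description, 1 of the 7 measured genes was higher and 3 were lower, where 4.59% of all tested genes were called higher and 5.29% lower. Without the limit on fold change, 2 were higher and 4 lower, beside 13.2% and 15.5% of all tested genes. The CPM values of the groups did not overlap for 7 of the 7, which held for 45.1% of all tested genes. Because the genes were selected with these values in view, nothing is read from these shares. The log2 fold change had a median of -0.01 over all tested genes, with quartiles of -0.30 and 0.28.

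Il15 encodes the ligand itself, ENSMUSG00000031712 on chromosome 8 (GRCm38, 82331632 to 82403222, minus strand). In the order of the replicates, its level was 7.08, 6.36 and 6.88 CPM for the control and 2.2, 2.27 and 3.24 CPM for miR-322/-503. Every miR-322/-503 library lay below every control library, with replicate 3 the highest of its group. The means of 6.77 ± 0.373 and 2.57 ± 0.584 CPM (SD, n = 3) differed 2.63-fold, a log2 fold change of -1.40 ± 0.18 (SE). On the TPM scale, which divides by transcript length, the miR-322/-503 libraries were closer together, at 3.8, 3.61 and 3.92, against 9.79, 9.16 and 11.3 in the control.

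Il7 encodes interleukin-7 and lies on chromosome 3 (7569994 to 7613760, minus strand). It was read at 6.14, 5.73 and 6.5 CPM in the control and at 0.808, 0.48 and 0.452 CPM in the miR-322/-503 libraries, or 475, 473 and 549 against 77, 36 and 34 estimated counts. The groups were far apart, and the low group still stood above the level of 3 read pairs in each library. The mean was 10.6-fold lower, 0.58 ± 0.198 against 6.12 ± 0.387 CPM (SD, n = 3), with a log2 fold change of -3.38 ± 0.25 (SE). An antisense gene, Gm16685, overlaps Il7, and had 20, 0 and 8 estimated counts in the control libraries and 0 in the others; the counting is not stated to use strand, so reads of the pair could not be told apart.

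Il15ra encodes the chain that binds IL-15 with high affinity and presents it to neighbouring cells (chromosome 2, 11705290 to 11734317, plus strand). Its control libraries had 2.47, 2.2 and 2.18 CPM, and the miR-322/-503 libraries 0.619, 0.32 and 0.186 CPM. The latter rest on 59, 24 and 14 estimated counts, so the lowest library is near the 3 read pairs taken as the floor. The mean was 6.09-fold lower, at 2.28 ± 0.16 against 0.375 ± 0.222 CPM (SD, n = 3), and the log2 fold change was -2.58 ± 0.41 (SE), the widest error of the 7 genes. Leaving out miR-322/-503 replicate 1, the highest of its group, moved it to -3.16, and leaving out replicate 3, the lowest, to -2.27.

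The same library was the highest of its group for Il15ra and for Il7. In miR-322/-503 replicate 1, Il15ra was at 2.45 times and Il7 at 1.73 times the mean of the other two libraries. Over 312 called genes with a log2 fold change below -2, the median of this ratio was 0.99, and for Il15 it was 0.799. Both genes were lower than in the control in that library too.

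Il2rg encodes the common gamma chain, the subunit shared by the receptors for IL-2, IL-4, IL-7, IL-9, IL-15 and IL-21 (chromosome X, 101264378 to 101268255, minus strand). The control libraries had 0.517, 1.08 and 1.04 CPM, from 40, 89 and 88 estimated counts. With miR-322/-503 it stood at 11.3, 11.8 and 12.5 CPM, from 1076, 886 and 941 counts. The control was low in all libraries and lowest in replicate 1, and the miR-322/-503 libraries were nearly equal. The mean was 13.5-fold higher, 11.9 ± 0.614 against 0.879 ± 0.314 CPM (SD, n = 3), with a log2 fold change of 3.75 ± 0.27 (SE) and a range of 3.48 to 3.92 when each library was left out in turn. A coding gene annotated across the same stretch and strand, Gm20489, held 3 counts in a single control library and 0 elsewhere. Il2rg is known from lymphoid cells, and of the 11 lymphoid markers, 9 were at 0 in every library. Ptprc had 6 estimated counts in 1 miR-322/-503 library and 0 in the others. Cd79a had 9, 5 and 0 in the miR-322/-503 libraries and 0 in the control. Which cells the reads of Il2rg came from was not tested.

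**Figure D1:**
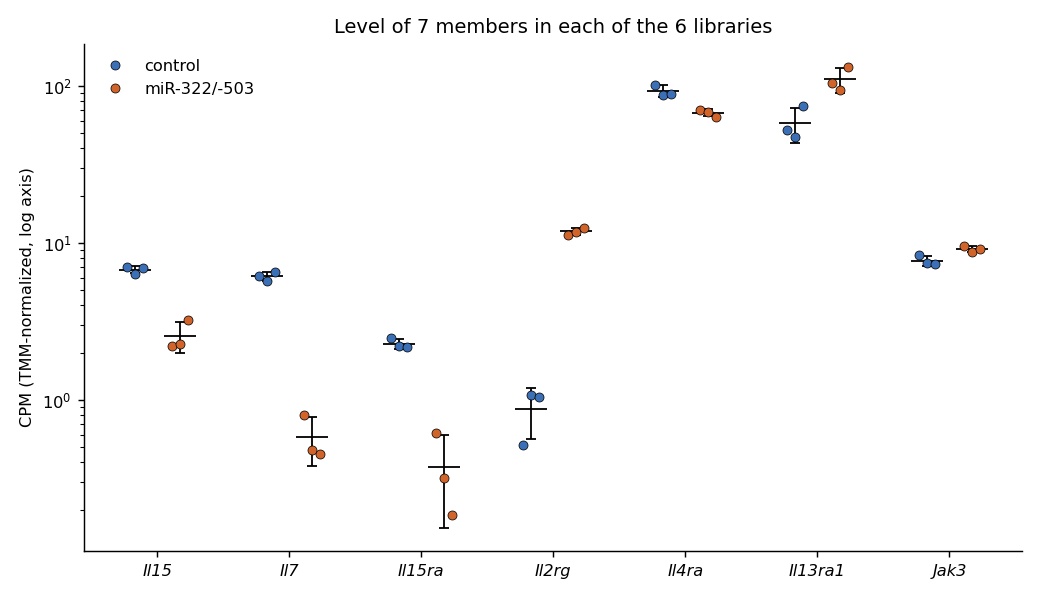
The plot of 7 genes by library gives CPM on a log axis, with 1 point per library (blue control, orange miR-322/-503), a horizontal bar for the mean and whiskers for the SD (n = 3 per group). Il15, Il7 and Il15ra lie lower and Il2rg higher with miR-322/-503, from 0.879 to 11.9 CPM for Il2rg, while the Jak3 groups lie close together at 7.72 and 9.2 CPM.

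The partner chains of Il2rg were present at unequal levels. Il7r, the specific chain of the IL-7 receptor (chromosome 15, 9505788 to 9530176, minus strand), had 0 estimated counts in all 6 libraries, so that each library allows a level of up to 0.126 to 0.16 CPM by counting error. Il4ra, which binds IL-4 (chromosome 7, 125552120 to 125579474, plus strand), had 102, 87.8 and 88.5 CPM in the control and 70.7, 68.0 and 63.8 CPM with miR-322/-503. Every miR-322/-503 library was below the lowest control library, and the mean was 1.37-fold lower, 67.5 ± 3.46 against 92.6 ± 7.74 CPM (SD, n = 3), and the log2 fold change was -0.46 ± 0.08 (SE).

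Il13ra1 encodes the chain that joins Il4ra in the receptor without a gamma chain (chromosome X, 36112110 to 36171259, plus strand). Its control libraries had 52.7, 47.0 and 74.2 CPM, and the miR-322/-503 libraries 105, 94 and 132 CPM. Replicate 3 was the highest in each group, and the groups did not overlap. The mean was 1.91-fold higher, 110 ± 19.8 against 57.9 ± 14.3 CPM (SD, n = 3), and the log2 fold change of 0.93 ± 0.19 (SE) lay just under the limit of 1 for a call. It passed that limit without control replicate 3 (1.15) or without miR-322/-503 replicate 2 (1.03). Il15, at -1.40, was the called gene nearest to the limit on the other side.

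Jak3 encodes the kinase that binds the gamma chain (chromosome 8, 71676296 to 71690575, plus strand). It was measured at 8.4, 7.42 and 7.33 CPM in the control and at 9.63, 8.79 and 9.17 CPM with miR-322/-503. The groups did not overlap, but the gap between them was narrow, and Jak3 did not meet the adjusted p. The mean was 1.19-fold higher, 9.2 ± 0.422 against 7.72 ± 0.591 CPM (SD, n = 3), and the log2 fold change was 0.25 ± 0.1 (SE). While Il2rg was 13.5-fold higher, the kinase gene for its chain thus differed by less than a log2 unit.

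Levels of different genes were compared on the TPM scale. In the control, the order from the top was Il4ra at 43.1 ± 3.62, Il13ra1 at 29.6 ± 7.23, Il15 at 10.1 ± 1.08 and Jak3 at 3.77 ± 0.228 TPM (SD, n = 3), and the ranges of these neighbours did not overlap. Below them Il15ra (2.97 ± 0.115 TPM) and Il7 (2.67 ± 0.384 TPM) overlapped, and Il2rg was the lowest gene with reads at 1.2 ± 0.432 TPM. With miR-322/-503 the order became Il13ra1 at 55.6 ± 7.69, Il4ra at 31.3 ± 3.36, Il2rg at 17.1 ± 0.589, Jak3 at 4.59 ± 0.236 and Il15 at 3.78 ± 0.156 TPM. Il15ra at 0.729 ± 0.527 and Il7 at 0.264 ± 0.152 TPM again overlapped at the bottom. The gamma chain gene moved from below Jak3 and both ligands to above them, and Il4ra and Il13ra1 exchanged the first place.

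**Figure D2:**
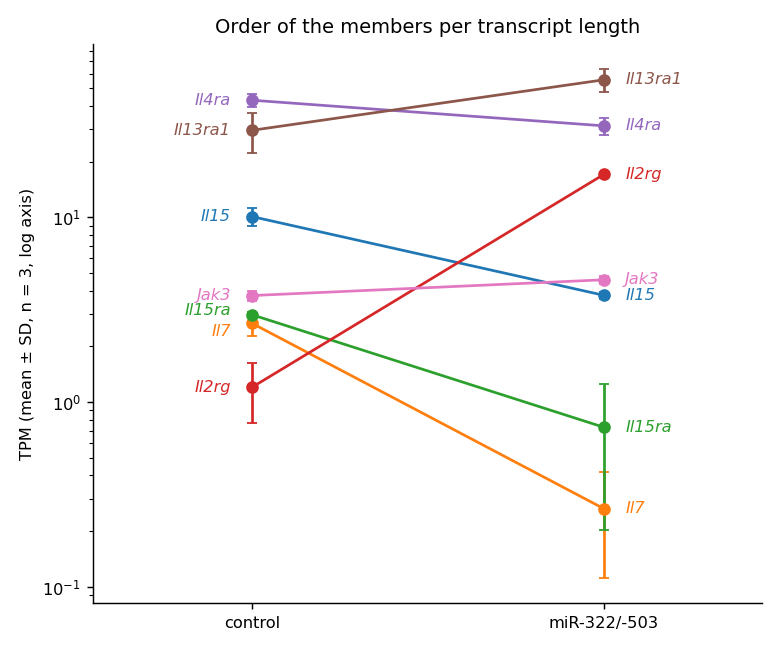
The plot of levels per transcript length joins the mean TPM (log axis) of each gene in the control and the miR-322/-503 group, with whiskers for the SD (n = 3). Il2rg crosses Il7, Il15ra, Jak3 and Il15 and ends at 17.1 TPM, and the lines of Il4ra and Il13ra1 cross.

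Within a library the ratio of 2 levels does not depend on depth. For the chains that can pair with Il4ra, the ratio of Il2rg to Il13ra1 was 0.0261, 0.0632 and 0.0369 in the control and 0.301, 0.358 and 0.273 with miR-322/-503 (TPM over TPM). Il4ra exceeded Il13ra1 in every control library (1.73, 1.68 and 1.11) and was below it in every miR-322/-503 library (0.628, 0.665 and 0.433). The TPM of Il4ra was 41 ± 22 times that of Il2rg in the control and 1.84 ± 0.25 times with miR-322/-503 (SD, n = 3). All 3 of these ratios were separated between the groups. They are ratios of the same 3 genes, so each follows from the others. The genes were chosen on their fold changes, so this separation is a description. The ratios are of RNA, and the receptor chains themselves were not measured.

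The ratio of Il2rg to the transcript of its kinase, Jak3, was 0.177, 0.424 and 0.372 in the control and 3.56, 3.6 and 4.01 with miR-322/-503, so the order of the pair was the opposite in the miR-322/-503 group. The ligand and its own receptor chain gave no such separation. Il15 over Il15ra was 3.16, 3.19 and 3.82 in the control and 2.84, 8.94 and 8.78 with miR-322/-503, and the groups overlapped because replicate 1 was below every control library, while the other two libraries were above them all. The means of 3.39 ± 0.373 and 6.85 ± 3.47 (SD, n = 3) therefore differ by no more than the spread of the miR-322/-503 libraries.

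**Figure D3:**
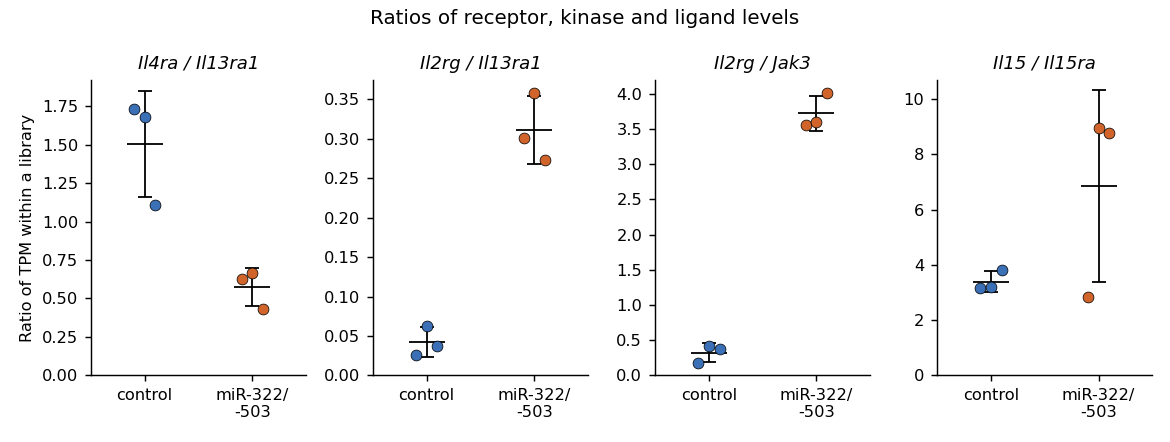
The plot of TPM ratios shows 4 pairs of genes, with 1 point per library, a bar for the mean and whiskers for the SD (n = 3 per group, linear axes from 0). The first 3 ratios do not overlap between the groups, and Il15 over Il15ra does, with the miR-322/-503 points at 2.84, 8.78 and 8.94.

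Because Il15 lies in a stretch of chromosome 8 that was known from earlier results of these data to move together, each gene was set beside the 10 tested genes on each side of it. Around Il15 (79683462 to 83607971) the median log2 fold change of the 20 neighbours was -0.78, and 17 of the 20 were below 0, with 12 past the adjusted p downward and 2 upward. Over all tested genes, 15.5% passed it downward and 13.2% upward. The shift of the stretch was already known, so these counts are a description. The adjacent genes were Inpp4b at -0.42 and Zfp330 at -1.22, and Gab1, the adaptor gene described below, is in the same stretch at -1.07. The 2 upward genes were Hhip (3.47) and Tbc1d9 (1.51), named after their values were seen. The median of the neighbours, relative to the control, was alike in each miR-322/-503 library, at -0.66, -0.65 and -0.66. Il15 was 0.62 log2 units below the median of its neighbours, and 3 of the 20 were lower than Il15. How much of the difference in Il15 is shared with the stretch was not tested.

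The medians around the other genes were nearer to 0. The median of the 20 neighbours was 0.30 for Il7, -0.04 for Il15ra, 0.14 for Il2rg, 0.12 for Il4ra, -0.20 for Il13ra1 and -0.09 for Jak3. No neighbour was as low as Il7 or as high as Il2rg, and 1 neighbour was lower than Il15ra. Il4ra, with its smaller difference, was also below all 20 of its neighbours. Il13ra1 lay below 1 neighbour, Dock11, the adjacent gene, which had a log2 fold change of 0.97 beside 0.93 for Il13ra1. Jak3, also on chromosome 8 but far from Il15, lay above 17 of its 20 neighbours.

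**Figure D4:**
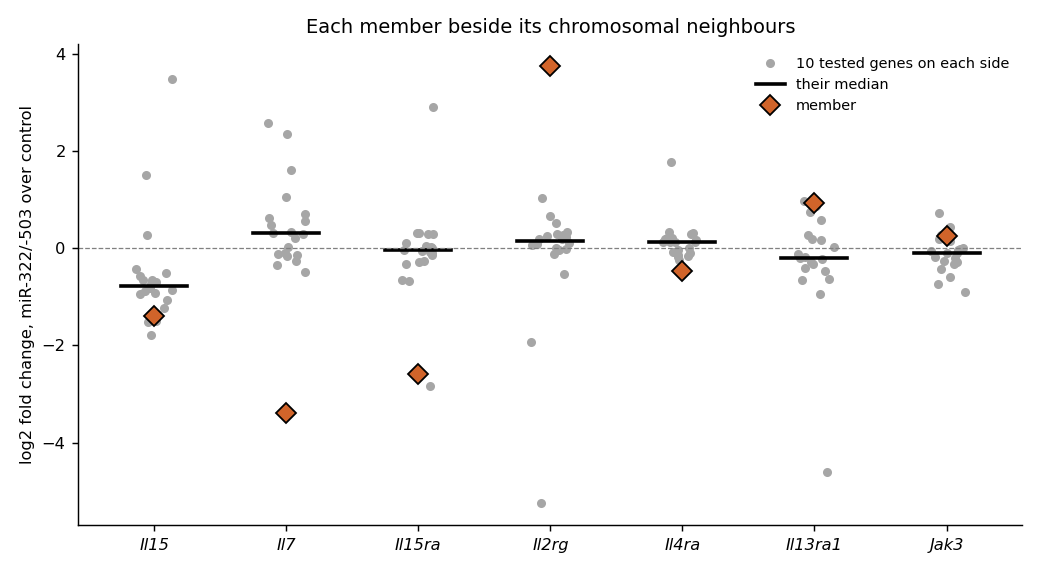
The plot of chromosomal neighbours gives the log2 fold change (miR-322/-503 over control) of each gene as a diamond, of the 10 tested genes on each side as grey points, and their median as a bar. The neighbours of Il15 lie mostly below 0 (median -0.78), and for Il7, Il15ra and Il2rg the diamond lies far from the median of its neighbours.

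Promoters, from 250 bases before to 50 after the start, were found in the RefSeq table (GRCm38.p6) for 6 of the 8 genes. They were searched on both strands for TTCNNNGAA (the GAS element bound by STAT factors), CANNTG (the E-box bound by myogenic factors), TGANTCA (AP-1) and GGAAGT (ETS factors), which occur in 8.3%, 72.3%, 7.81% and 23.8% of 32851 promoters. Il2rg and Il15ra are shown because they were the receptor genes that differed most in each direction. The Il2rg window is at chrX:101268206-101268505 (minus strand), and that of the downstream of 2 Il15ra starts at chr2:11705462-11705761 (plus strand), printed as the one with more matches, with matches in capitals.
Il2rg: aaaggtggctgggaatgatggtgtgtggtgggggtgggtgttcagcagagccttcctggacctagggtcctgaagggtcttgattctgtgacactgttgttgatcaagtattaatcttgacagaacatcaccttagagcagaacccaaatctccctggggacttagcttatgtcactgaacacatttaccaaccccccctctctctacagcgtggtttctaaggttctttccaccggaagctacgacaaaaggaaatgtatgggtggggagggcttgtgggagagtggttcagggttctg
Il15ra: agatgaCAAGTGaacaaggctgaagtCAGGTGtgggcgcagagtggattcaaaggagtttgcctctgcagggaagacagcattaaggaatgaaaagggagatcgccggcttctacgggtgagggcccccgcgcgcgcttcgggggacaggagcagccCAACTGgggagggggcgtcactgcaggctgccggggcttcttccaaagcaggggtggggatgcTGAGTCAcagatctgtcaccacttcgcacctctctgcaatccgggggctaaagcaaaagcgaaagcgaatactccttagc
The Il2rg window has none of the 4 motifs and 3 CpG, and the Il15ra window has 3 E-boxes, an AP-1 match 30 bases before the start and 15 CpG. The upstream Il15ra window, at chr2:11705043-11705342, has 2 E-boxes, no AP-1 match, 1 ETS match and 6 CpG. No match says only that these letters are absent from the window.

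The genes whose profiles over the 6 libraries were most like that of a member, by the root mean square distance of log2(CPM + 0.5) from the control mean among 13596 tested genes, had the following values. For Il15 these were Tril (distance 0.0903, 2.16 ± 0.291 against 0.681 ± 0.289 CPM), Nrg1 (0.0904, 67.4 ± 2.77 against 28 ± 6.69 CPM) and Shfl (0.0912, 24.8 ± 0.474 against 10.9 ± 2.31 CPM). For Il15ra they included Il27ra, a receptor chain for IL-27 (0.115, 2.69 ± 0.321 against 0.473 ± 0.163 CPM) and Nphp4 (0.12). For Il2rg they were Gap43 (0.103, 3.52 ± 0.539 against 36 ± 2.48 CPM), Fam83b (0.109, 0.12 ± 0.111 against 5.47 ± 0.546 CPM) and Has1 (0.158, 1.54 ± 0.501 against 19.1 ± 1.39 CPM).

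In the lists that follow, a gene rose or fell where the edgeR adjusted p was under 0.05, with no limit on the fold change, a threshold passed upward by 13.2% and downward by 15.5% of all tested genes. A call, which adds the fold limit, was met upward by 4.59% and downward by 5.29%. Of 12 further ligands and receptors of the family, 5 could be tested, 1 rose, which was also called, and none fell. Tslp, the ligand of a related receptor that shares Il7r, was counted 185, 184 and 123 times in the control and 612, 448 and 465 times with miR-322/-503, and rose by a log2 fold change of 1.61 ± 0.20 (SE, adjusted p = 0.000911). Its specific chain Crlf2 (log2 fold change -0.05 ± 0.20, adjusted p = 0.892) and Il2rb, the chain that IL-15 uses beside the gamma chain (-0.12 ± 0.17, adjusted p = 0.644), did not pass the test. Il2rb was measured at 3.75 ± 0.524 against 3.44 ± 0.429 CPM. Il4 was read at a low level, 0.903 ± 0.0544 against 1.18 ± 0.0761 CPM, with an adjusted p of 0.233, and Il13ra2 had 0, 0 and 12 against 37, 20 and 18 estimated counts, with an adjusted p of 0.146. Il2, Il9, Il21 and Il2ra had 0 counts in all libraries, and Il13, Il9r and Il21r had too few to be tested. The median log2 fold change of the 5 tested genes was 0.38.

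Below the receptors, 9 of 10 JAK and STAT genes were tested, none rose and 1 fell, with a median of -0.14, and none met the fold limit of a call. Jak2 fell by 0.67 on the log2 scale (SE 0.10, adjusted p = 0.00202). Jak1, the kinase that works beside JAK3 on these receptors, was at 210 ± 4.35 against 192 ± 4.68 CPM (adjusted p = 0.128), and the main STAT factors of IL-15 and IL-7 signaling, Stat5a and Stat5b, had adjusted p of 0.0747 and 0.192. Stat6, which serves IL-4, was low in both groups, at 1 ± 0.305 and 0.952 ± 0.103 CPM. Genes named in these lists without meeting the call were chosen after their values were seen.

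Of 19 genes that restrain this signaling, 18 were tested, 5 rose (Socs6, Pias2, Socs7, Socs2 and Ptpn11) and 2 fell (Socs3 and Socs5), with a median of 0.14. Of these, 1 in each direction also met the fold limit of a call (Socs6 and Socs3), beside 4.59% and 5.29% of all tested genes, and the adjusted p alone was passed by 13.2% upward and 15.5% downward of all tested genes. Socs5 passed the test in 1 of the 6 fits that left out a library, that without control replicate 3. Socs3, a feedback inhibitor induced by cytokines of the IL-6 family among others, was at 10017, 10723 and 9574 estimated counts for the control and 3380, 3208 and 2232 with miR-322/-503, and fell by 1.79 on the log2 scale (SE 0.13, adjusted p = 7.3e-05). Socs6, an adaptor of the same family, rose from 13.3 ± 1.03 to 34.5 ± 2.37 CPM, with a log2 fold change of 1.37 ± 0.09 (adjusted p = 5e-05). Cish, the inhibitor best known as a response to STAT5, was low in both groups and did not pass the test, at 0.276 ± 0.132 and 0.527 ± 0.371 CPM (adjusted p = 0.356).

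Of 16 genes known from lymphocytes as responses to these cytokines, 14 were tested, 3 rose (Ccnd3, Id2 and Socs2) and 1 fell (Socs3), with a median of 0.14, of which Ccnd3 and Socs3 also met the fold limit of a call, as did 4.59% upward and 5.29% downward of all tested genes. Ccnd3, encoding cyclin D3, was at 4041, 4671 and 7061 estimated counts for the control and 8507, 12777 and 11220 with miR-322/-503, a log2 fold change of 1.09 ± 0.26 (SE, adjusted p = 0.0194). It passed the test in 2 of the 6 fits that left out a library, with an adjusted p of 0.0146 without control replicate 3 and 0.00567 without miR-322/-503 replicate 1, and of 0.0606 to 0.0732 in the other fits. The survival genes Bcl2 and Mcl1 had adjusted p of 0.680 and 0.318. The list shares Cish, Socs1, Socs2 and Socs3 with the list of restraining genes.

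Of 20 adaptor and PI3K-AKT genes, 20 were tested, 5 rose (Syk, Irs1, Sos2, Pik3r2 and Rptor) and 6 fell (Irs2, Gab1, Pik3cb, Pik3r1, Shc1 and Mtor), with a median of 0.09. None of the first and 2 of the second (Irs2 and Gab1) also met the fold limit of a call (4.59% and 5.29% of all tested genes), and the adjusted p alone was passed by 13.2% upward and 15.5% downward of all tested genes. Sos2 passed the test in 2 of the 6 fits that left out a library. Irs2, an insulin receptor substrate also used by the IL-4 receptor, fell from 13.3 ± 1.54 to 4.48 ± 0.787 CPM, by 1.57 on the log2 scale (SE 0.16, adjusted p = 0.000356). Gab1, a docking adaptor, fell from 62.6 ± 1.04 to 29.9 ± 2 CPM (log2 fold change -1.07 ± 0.07, adjusted p = 3.5e-05), and its place among the neighbours of Il15 is given above. Irs1, the relative of Irs2 in the IL-4 pathway, rose by 0.48 on the log2 scale (SE 0.06, adjusted p = 0.00078).

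Of 15 genes tied by background knowledge to IL-15 or IL-4 action or to cytokine release in muscle, 13 were tested, 2 rose (Nlrc5 and Ppargc1a) and 6 fell (Nfatc2, Igf1, Fndc5, Nfatc1, Irf2 and Lif), with a median of -0.49. None of the first and 2 of the second (Nfatc2 and Igf1) also met the fold limit of a call (4.59% and 5.29% of all tested genes), beside the same 13.2% and 15.5% of all tested genes at the adjusted p alone. Nlrc5 and Irf2 each passed the test in only 1 of the 6 fits that left out a library. Nfatc2, the factor known for IL-4 expression in myotubes, was at 71, 99 and 109 estimated counts for the control and 26, 15 and 12 with miR-322/-503, and fell by 2.41 on the log2 scale (SE 0.33, adjusted p = 0.00151). Igf1, a growth factor of muscle, fell from 80.5 ± 8.3 to 26.5 ± 2.65 CPM, by 1.61 on the log2 scale (SE 0.10, adjusted p = 3.5e-05). Irf1, an activator of Il15 and Il15ra in immune cells, did not pass the test (38.4 ± 1.16 against 41.4 ± 5.83 CPM, adjusted p = 0.487), and Mstn had 0 counts in all libraries. Over all tested genes the median was -0.01.

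**Figure D5:**
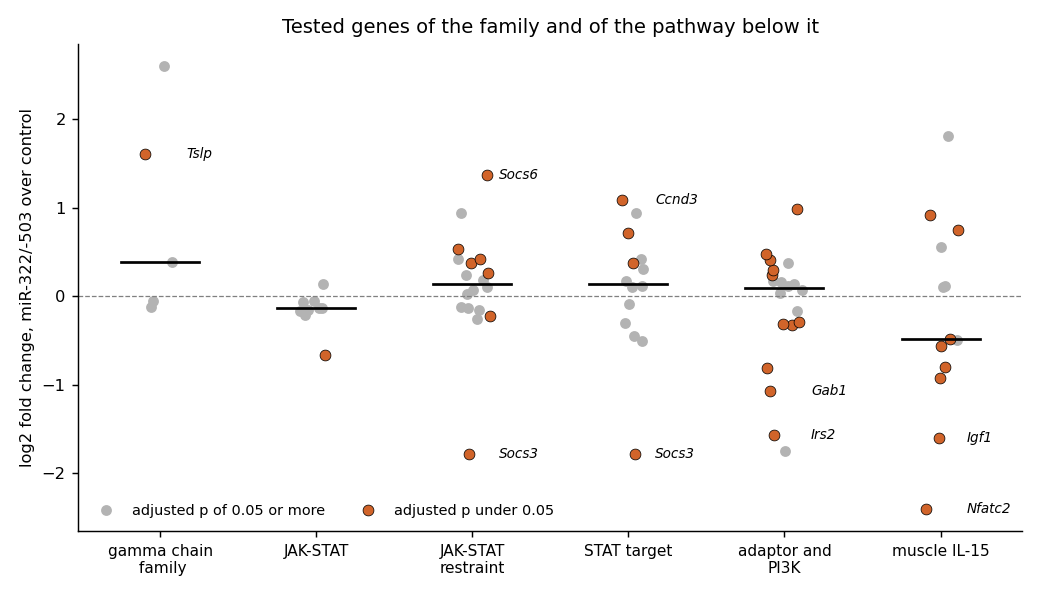
The plot of 6 gene lists gives 1 point per tested gene, the log2 fold change (miR-322/-503 over control), coloured where the adjusted p was under 0.05, with a bar for the median of the list and names for the called genes. The medians lie between -0.49 (muscle IL-15) and 0.38 (gamma chain family), and Socs3 appears in 2 lists.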

How the data were processed

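Per the paper and the labels, the authors used Trim Galore for trimming, HISAT2 for alignment to GRCm38 and StringTie for quantification. Versions and annotation are not given in the sources used here. The deposited table holds estimated counts per gene, as whole numbers and not normalized. The deposited table of each library holds TPM, FPKM and per-base coverage signal of each gene, of which TPM was used here, matched by gene identifier.

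Counts were tested with edgeR 4.0.16 in R 4.3.3 (TMM factors, filterByExpr, and the quasi-likelihood functions glmQLFit and glmQLFTest), with Benjamini-Hochberg adjustment over 18140 genes. A gene was called at an adjusted p under 0.05 and an absolute log2 fold change above 1. The SE is the log2 fold change divided by the square root of F. Low counts peaked at 4, 8 and 12, so about 4 counts stand for a read pair, and bounds from counts cover counting error only. Replicates differed by more than sampling noise (chi-square per degree of freedom 14.8 to 21.3), and the paper's general statement on its assays names biological as well as technical replicates. The labels do not say which of these the libraries of a group were, so p-values measure the spread between these libraries.

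The 8 genes, the gene lists and the tests were chosen with earlier results of these data known. Named are the 8 genes, the called genes of each list (at most 6), the gamma chain family list, adjacent genes, and the 3 genes most alike in profile (mean of at least 1 CPM), of which 1 is not reported here. Of 55154 identifiers found in GENCODE M21, 99.5% had the position given in the deposited tables, and 3′UTRs of at least 50 bases were taken from that annotation. The computations were tested on simulated data. Alternatives were DESeq2 1.42.0, other scalings and filters, glmTreat, limma 3.58.1 on TPM, counts divided by 4, a replicate block, other neighbour windows and leaving out each library.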

Additional observations from a re-analysis of the deposited data

How the results depend on the processing

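No log2 fold change of the 7 tested among the 8 genes or of a called list gene changed sign under the alternatives run. The 8 genes were chosen on this comparison, so their meeting a cut-off under other settings supports nothing. Under glmTreat, whose null is an absolute log2 fold change up to 1, Il15 did not meet the cut-offs, the list genes Gab1 (adjusted p = 0.705) and Ccnd3 (adjusted p = 1) were no longer called, and the members past adjusted p were 1 higher and 2 lower. With glmTreat the JAK-STAT list had 0 lower, the restraint list 1 higher and 1 lower, the STAT target list 0 higher, the adaptor list 0 higher and 1 lower, and the muscle list 0 higher and 2 lower. With limma on log2(TPM + 1) and on log2(TPM + 0.1) alike, the JAK-STAT list had 2 lower, the restraint list 3 higher and 1 lower, the STAT target list 1 higher, the adaptor list 2 higher and the muscle list 1 higher, and with the smaller pseudocount the gamma chain family list had 2 higher. On log2(TPM + 1), where the pseudocount reduces the differences of low genes, Nfatc2 was at -0.32 in place of -2.41 and lost the fold limit, Il7 was at -1.54 in place of -3.38, and Il15ra at -1.24 in place of -2.58. Under glmTreat 396 genes were called higher and 530 lower, and under limma on log2(TPM + 1) 391 and 564, against 832 and 959.

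The median of the neighbours of Il15 was -0.97 with DESeq2, -0.94 without an expression filter, -0.73 with at least 10 counts in every library, -0.65 and -0.73 on log2(TPM + 1) and log2(TPM + 0.1), -0.70 on counts divided by 4, -0.90 with 5 and -0.69 with 25 genes on each side, and -0.82 to -0.69 when each library was left out. Leaving out each library also gave 1 to 2 members called higher (Il13ra1 added without control replicate 3 or without miR-322/-503 replicate 2), 1 to 2 gamma chain family genes higher (Il13ra2 added without control replicate 3), 1 to 2 restraint genes lower, 1 to 3 STAT target genes higher (fewest without miR-322/-503 replicate 3) and 1 to 2 lower (Pim1 added without control replicate 3, Ccnd2 without miR-322/-503 replicate 2), 3 to 6 adaptor genes higher (fewest without miR-322/-503 replicate 2) and 1 to 2 muscle genes higher (Nlrc5 lost without any library but miR-322/-503 replicate 3). The causes of these changes were not tested.

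The replicate numbers were not stated to mark shared cultures. Deviations of same-numbered libraries correlated at 0.131, 0.0687 and 0.0451, and 6 of 6 libraries correlated best with their own number, a hint from the data only. With the replicate block 747 genes were called higher and 893 lower, the STAT target list had 2 lower, as also with DESeq2, and the median of the neighbours of Il15 was -0.84. Depth limits Il15ra and Il7, which rest on 14 to 77 estimated counts in the miR-322/-503 libraries, Il2rg, which rests on 40, 89 and 88 in the control, and Il7r, at 0.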
